A study of Homo sapiens with 6 samples.

Results

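Transcripts of the proteasome were compared between SNU-449 cells expressing Yes T348I and SNU-449 cells expressing Yes WT. The gene set held the protein-coding genes whose symbols begin with PSMA, PSMB, PSMC, PSMD, PSME, PSMF or PSMG followed by a digit, together with POMP and ADRM1. This gave 52 of the 58219 gene identifiers in the count tables. Of these, 50 had enough reads to be tested. PSMA8, an alpha subunit of the testis, had 0 counts in all 6 libraries, and PSMB11, the catalytic subunit of the thymus, had a single count in Yes T348I replicate 2 and 0 elsewhere. Symbols set the membership, although the set was proposed with earlier results of these data known.

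SNU-449 is an established line of human hepatocellular carcinoma. Polyadenylated RNA was sequenced, strand by strand, in 3 libraries from cells stably expressing wild-type Yes, a tyrosine kinase of the SRC family, and in 3 from cells stably expressing its gatekeeper mutant Yes T348I. All 6 libraries came from cells given 100 nM dasatinib, which inhibits kinases of the SRC and ABL families. Libraries without the drug were not analysed here. The promoter that drives the introduced gene, the time under the drug and whether a line was 1 clone or a pool are not given in these sources. That the 3 libraries of a group were separate cultures is not stated in the labels, and the tests therefore cover the variation among these libraries alone, part or all of which can be technical.

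Gene counts totalled 14360137 to 16117573 per library in Yes WT and 14392286 to 19608763 in Yes T348I. The first principal component held 69.4% of the variance and parted the groups. Of the 5 hepatocyte markers checked, ALB, APOA1 and TTR, which define the differentiated cell, had at most 10 counts in any library, SERPINA1 at most 27 and TF, which was lower in Yes T348I, at most 41. The epithelial keratin genes KRT8 and KRT18 had 2223 counts or more, but EPCAM had at most 11 and CDH1, which was lower in Yes T348I, at most 59. Of the mesenchymal markers VIM was higher and FN1 lower. The 4 leukocyte markers summed to 2.42 to 2.94 CPM in Yes WT and 0.353 to 1.23 CPM in Yes T348I. CD3E was at 0, LYZ at 3 counts or fewer and PTPRC at 5 or fewer. CD14, which was lower in Yes T348I, had 38, 32 and 41 counts in Yes WT and 22, 12 and 3 in Yes T348I. The 3 endothelial markers summed to 1.14 to 1.47 CPM in Yes WT and 0.423 to 0.513 CPM in Yes T348I. The 4 markers of fibroblasts and stellate cells summed to 5.87 to 8.03 and 4.18 to 5.38 CPM. In each of these lists 1 gene had enough reads to be tested, and it was lower in Yes T348I. PECAM1 went from a mean of 0.847 to 0.194 CPM and ACTA2 from 6.71 to 4.47 CPM. PDGFRB was at 0.376 and 0.368 CPM. CPM are counts per 1000000 counts of a library after TMM scaling, and SE stands for the standard error of a log2 change.

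The proteasome is the protease that degrades ubiquitin-tagged proteins in the cytosol and nucleus. Its core particle is a barrel of alpha rings, which form the gate, and beta rings, of which PSMB5, PSMB6 and PSMB7 carry the chymotrypsin-like, caspase-like and trypsin-like activities. A regulatory particle caps the barrel, with a base of ATPases that unfold the substrate and ubiquitin receptors that capture it, and a lid that holds the deubiquitinase PSMD14. Interferon replaces the catalytic subunits by PSMB8, PSMB9 and PSMB10, which gives the immunoproteasome known for making peptides for MHC class I. Dedicated chaperones assemble the core and the base, and other caps, encoded by the PSME genes, can take the place of the regulatory particle. The counts measure transcripts, not the assembled particle or its activity.

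Most proteasome transcripts were slightly more abundant in Yes T348I. Of the 50 genes tested, 32 rose and 1 fell (edgeR, Benjamini-Hochberg adjusted p under 0.05 over all 14723 genes tested), where 28.0% of all genes tested rose and 27.3% fell. The members' log2 changes, the log2 of Yes T348I over Yes WT, ran from -0.27 to 0.59, with a median of 0.20, against -0.01 for all genes tested. With a minimum change of 1.2-fold put into the test, 8 members rose and 0 fell, which is 16% of those tested beside 9.47% of all genes higher and 12.5% lower. The 8 were PSMG1, PSME3, PSMC3IP, PSMD2, PSMC1, PSMG3, PSMD11 and PSMD12. Leaving out each library in turn gave 5 to 9 such members, and PSMD11, PSMD12 and PSMG3 were lost in at least 1 of these fits while the other 5 were kept in all 6. Against a minimum of 1.1-fold 23 members rose, beside 19.1% of all genes. Against a minimum of 1.5-fold 0 members passed, also at an unadjusted p under 0.05, where 1.36% of all genes were higher and 3.29% lower. In 33 members all Yes T348I libraries lay above all Yes WT libraries, and in 2, PSMC4 and PSMD4, all lay below. Of all genes tested, 29.9% lay above and 29.7% below in this way.

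Abundant genes tended upwards as a whole in this comparison, and proteasome genes are abundant. Of the 4551 genes tested with a mean of at least 50 CPM, a limit chosen after the values were known, 49.4% rose and 23.7% fell, with a median log2 change of 0.09. Of the 38 members at that level 26 rose, which is 68.4%, and 1 fell, with a median of 0.19. With the minimum of 1.2-fold, 5 of these 38 members passed, all upwards. Of the abundant genes 16.8% were higher, a larger share than that of the members, and 8.04% lower. Of all 50 tested members, those below 50 CPM included, 80% had a log2 change above 0. The share was 63.8% among the abundant genes and 48.5% among all genes tested. RNA of whole cultures was measured, and fewer cells of a kind and less RNA per cell cannot be told apart in it.

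**Figure D1:**
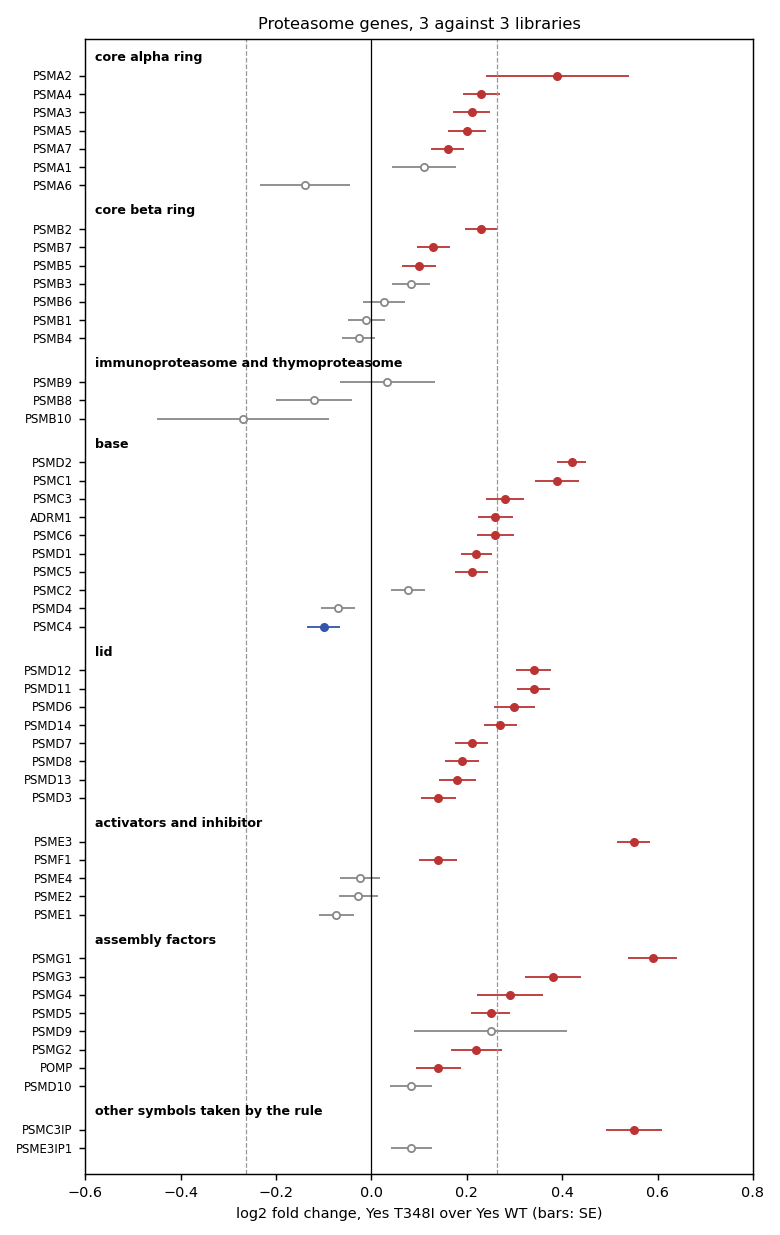
Log2 change of Yes T348I over Yes WT (horizontal axis) for the 50 proteasome genes tested, grouped by role, with the standard error as a bar, 3 libraries a group. Filled red points passed the edgeR test as higher (32 genes), filled blue as lower (PSMC4), open grey points did not pass, and dashed lines mark a change of 1.2-fold.

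**Figure D2:**
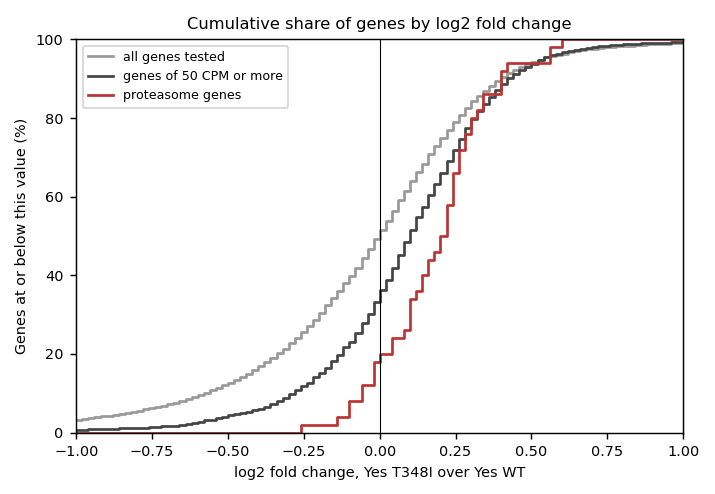
Cumulative share of genes (vertical axis, %) at or below each log2 change (horizontal axis) for all 14723 genes tested, the 4551 genes of 50 CPM or more and the 50 proteasome genes. The curve of the proteasome genes lies to the right of the other curves around 0 and reaches its top at 0.59, where the curves of all genes and of abundant genes go on.

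In the alpha ring, which gates the core, 5 of 7 tested genes rose (71.4%) and none fell, with a median log2 change of 0.20. This share stands beside 28.0% of all genes tested and 49.4% of those of 50 CPM or more. No alpha gene passed the minimum of 1.2-fold. PSMA4 was at 137, 149 and 140.4 CPM in Yes WT replicates 1 to 3 and at 160.0, 176 and 167 CPM in Yes T348I replicates 1 to 3. PSMA3 was at 105, 114 and 107 CPM in Yes WT and 127, 125 and 125 CPM in Yes T348I. PSMA5 was at 98.4, 97.2 and 92.6 CPM in Yes WT and 109.5, 109 and 114 CPM in Yes T348I. In each of these 3 genes the lowest Yes T348I library lay above the highest Yes WT library. PSMA4 rose by a log2 change of 0.23 (SE 0.039, edgeR adjusted p = 1.84e-06), PSMA3 by 0.21 (SE 0.039) and PSMA5 by 0.20 (SE 0.04). PSMA7, the most abundant of the ring in CPM, rose from 259 ± 6.41 to 289 ± 14.4 CPM (SD, n = 3 each, log2 change 0.16, edgeR adjusted p = 1.47e-04).

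The other alpha genes, PSMA1, PSMA2 and PSMA6, were counted at far lower levels. Exons of other genes on the same strand cover 53.2%, 52.5% and 81% of their main transcripts in GENCODE release 29, and a read that fits 2 genes is counted for neither. How far this lowers their counts was not tested, and the release that was counted is not given. Per kilobase of the main transcript they stood at 14.3, 2.64 and 12.5 CPM in Yes WT. There PSMA5 stood at 25.8, PSMA4 at 32.3, PSMA3 at 112 and PSMA7 at 259.6 CPM per kilobase. PSMA2 passed as higher (4.40, 4.15 and 3.21 CPM against 5.64, 4.39 and 5.29 CPM, log2 change 0.39, SE 0.15, edgeR adjusted p = 0.0271), although the groups overlap. Its call was lost with DESeq2 (adjusted p = 0.118), with unstranded counts (adjusted p = 0.0559 by edgeR) and without Yes WT replicate 3, Yes T348I replicate 1 or Yes T348I replicate 3. PSMA1 (log2 change 0.11) and PSMA6 (-0.14) did not pass (edgeR adjusted p = 0.158 and 0.211).

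Of the 7 genes of the beta ring 3 rose, PSMB2, PSMB5 and PSMB7, and none fell, with a median log2 change of 0.08. Their share of 42.9% lies below the 49.4% of genes of 50 CPM or more, whose median was 0.09. Among all genes tested 28.0% rose. PSMB2, which has no catalytic site, was at 167, 170.3 and 172 CPM in Yes WT and 199, 199 and 197 CPM in Yes T348I. Its groups lay well apart, with a spread of at most 2.68 CPM (SD) within either group, and it rose by a log2 change of 0.23 (SE 0.034, edgeR adjusted p = 2.92e-07). PSMB3 was at 128, 138 and 125 CPM in Yes WT and 144, 132 and 137 CPM in Yes T348I, and PSMB4 at 174, 172 and 172 CPM in Yes WT and 175, 166 and 167 CPM in Yes T348I. The groups of PSMB3 and PSMB4 overlapped, and neither passed (edgeR adjusted p = 0.0799 and 0.541). PSMB1 had a log2 change of -0.011 (SE 0.039, edgeR adjusted p = 0.826). After an offset for GC content and length PSMB1 and PSMB4 passed as lower, with log2 changes of -0.11 and -0.09 (edgeR adjusted p = 0.00942 and 0.0112), and PSMB3 passed as higher with no low-count filter and without Yes WT replicate 2 or Yes T348I replicate 2.

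Of the constitutive catalytic subunits, PSMB7 and PSMB5 rose and PSMB6 did not pass. PSMB7, the trypsin-like subunit (ENSG00000136930.12, GRCh38 chromosome 9, 124353466 to 124415444), was at 187, 189 and 179 CPM in Yes WT and 205, 203 and 199.5 CPM in Yes T348I, with no overlap (log2 change 0.13, SE 0.034, edgeR adjusted p = 0.00136). PSMB5, the chymotrypsin-like subunit and main target of the drug bortezomib (ENSG00000100804.18, GRCh38 chromosome 14, 23016543 to 23035230), was at 182, 178 and 178 CPM in Yes WT and 198, 183 and 196 CPM in Yes T348I. Its highest Yes WT library lay just under its lowest Yes T348I library (log2 change 0.10, SE 0.036, edgeR adjusted p = 0.0166). The call of PSMB5 was lost with upper quartile scaling (edgeR adjusted p = 0.160), library size only (0.157), the GC and length offset (0.134) and in 4 of 6 fits that left out a library. PSMB6, the caspase-like subunit (ENSG00000142507.9, GRCh38 chromosome 17, 4796144 to 4798503), was at 76.2, 79.2 and 74.8 CPM in Yes WT and 81.6, 74.5 and 77.8 CPM in Yes T348I. These groups overlapped (log2 change 0.027, SE 0.044, edgeR adjusted p = 0.626), and the sign of its difference turned with upper quartile scaling, library size only and the GC and length offset.

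The interferon-inducible subunits were expressed at a small fraction of their constitutive partners and did not pass in either direction (0 of 3 tested with edgeR, DESeq2 and limma-voom alike, and 0 at an unadjusted p under 0.05). PSMB8, which replaces PSMB5 (ENSG00000204264.8, GRCh38 chromosome 6, 32840717 to 32844703), was at 16.5, 17.0 and 17.9 CPM in Yes WT and 15.9, 14.6 and 16.8 CPM in Yes T348I (log2 change -0.12, SE 0.08, edgeR adjusted p = 0.211). PSMB9, which replaces PSMB6 and lies beside PSMB8 in the MHC region (ENSG00000240065.7, GRCh38 chromosome 6, 32844136 to 32859585), was at 10.1, 10.2 and 8.16 CPM in Yes WT and 9.49, 9.67 and 10.1 CPM in Yes T348I (log2 change 0.033, SE 0.1, edgeR adjusted p = 0.811). PSMB10, which replaces PSMB7 (ENSG00000205220.11, GRCh38 chromosome 16, 67934502 to 67937087), was at 2.99, 3.18 and 3.01 CPM in Yes WT and 2.41, 2.19 and 3.03 CPM in Yes T348I (log2 change -0.27, SE 0.18, edgeR adjusted p = 0.211). The groups overlapped in all 3 genes. PSMB10 rested on 32 to 49 counts per library, and 45.3% of its main transcript is covered by another gene on its strand. The difference of PSMB9 turned in sign under upper quartile scaling, library size only and the GC and length offset.

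Per kilobase of the main transcript, PSMB7 stood highest of the 6 catalytic subunits in Yes WT at 189 ± 5.37 CPM (SD, n = 3), followed by PSMB5 at 139 ± 1.62 and PSMB6 at 90.1 ± 2.61. PSMB8 stood at 15.3 ± 0.641, PSMB9 at 12.1 ± 1.48 and PSMB10 at 2.51 ± 0.0864 CPM per kilobase. The order was the same in Yes T348I, at 207 ± 2.68, 149 ± 6.51, 91.5 ± 4.13, 14.0 ± 0.975, 12.5 ± 0.391 and 2.09 ± 0.357 CPM per kilobase. Within a group, neighbours in this order did not overlap between libraries, and PSMB8 and PSMB9 were the closest.

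The balance of inducible to constitutive subunits was taken within each library, where it does not depend on the scaling. PSMB8 was counted at 9.07%, 9.55% and 10.05% of PSMB5 in Yes WT and at 8.04%, 7.999% and 8.57% in Yes T348I. All Yes T348I libraries were below all Yes WT libraries, a difference of -0.22 in the log2 ratio (exact permutation test, two-sided p = 0.1, the smallest that 3 against 3 allows, adjusted p = 0.15 over 3 ratios). PSMB10 was at 1.60%, 1.68% and 1.68% of PSMB7 in Yes WT and 1.18%, 1.08% and 1.52% in Yes T348I, also without overlap (difference -0.41, exact permutation p = 0.1, adjusted p = 0.15). PSMB9 was at 13.2%, 12.9% and 10.9% of PSMB6 against 11.6%, 12.97% and 12.95%, with overlap (difference 0.02, exact permutation p = 0.8, adjusted p = 0.8). With 3 libraries a group this exact test cannot give a p under 0.05.

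**Figure D3:**
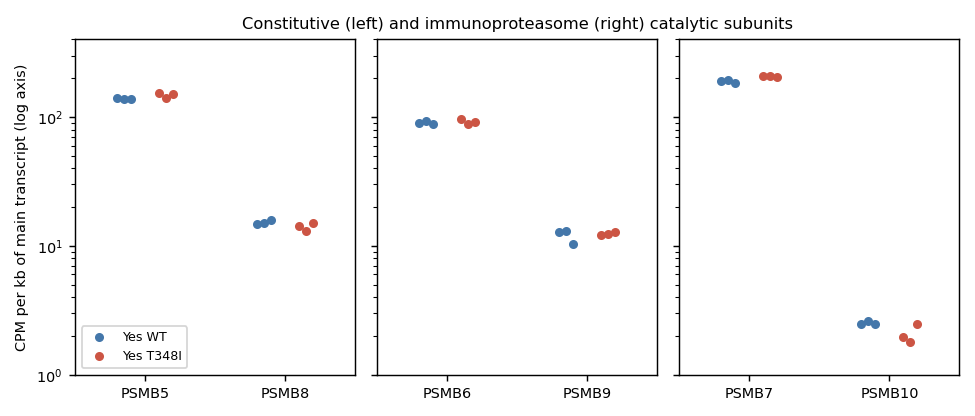
Level in each library (points, CPM per kilobase of the main transcript, log axis) of the constitutive catalytic subunits PSMB5, PSMB6 and PSMB7, each beside the inducible subunit that replaces it, in 3 Yes WT and 3 Yes T348I libraries. In Yes WT the inducible subunits stand at means of 11.0% (PSMB8), 13.5% (PSMB9) and 1.33% (PSMB10) of their partners per kilobase, and in Yes T348I at 9.44%, 13.6% and 1.01%.

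In the base, 7 of 10 genes rose (70%) and 1 fell (10%), with a median log2 change of 0.24. Among genes of 50 CPM or more 49.4% rose and 23.7% fell, and among all genes tested 28.0% and 27.3%. PSMD2, the large scaffold on which ubiquitin receptors dock (ENSG00000175166.16, GRCh38 chromosome 3, 184298709 to 184309054), was at 404, 402 and 398 CPM in Yes WT and 532, 532 and 546 CPM in Yes T348I. It was the most abundant member in CPM, its groups lay far apart, and it rose 1.34-fold (log2 change 0.42, SE 0.031, edgeR adjusted p = 4.29e-15). The ATPase gene PSMC1 (ENSG00000100764.13, GRCh38 chromosome 14, 90256495 to 90275429) was at 57.9, 58.0 and 56.1 CPM in Yes WT and 71.3, 77.8 and 76.2 CPM in Yes T348I. It rose 1.31-fold without overlap (log2 change 0.39, SE 0.046, edgeR adjusted p = 2.08e-09), and 82.1% of its main transcript lies opposite the exons of NRDE2 (with unstranded counts its log2 change was 0.42). ADRM1, a ubiquitin receptor that also anchors the deubiquitinase UCHL5, was at 159, 159 and 157 CPM in Yes WT and 193, 180.2 and 195 CPM in Yes T348I. All its Yes T348I libraries were higher (log2 change 0.26, SE 0.036, edgeR adjusted p = 5.00e-08). Of these 3, PSMD2 and PSMC1 passed the minimum of 1.2-fold (edgeR adjusted p = 9.55e-06 and 0.00764).

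The 6 ATPases did not move alike. Besides PSMC1, the genes PSMC3, PSMC5 and PSMC6 rose by log2 changes of 0.28, 0.21 and 0.26, and PSMC2 did not pass (0.076, edgeR adjusted p = 0.0734). PSMC2 passed as higher with no low-count filter (0.0390) and without Yes T348I replicate 1 (0.0342), and its sign turned with the GC and length offset. PSMC4 was at 181, 176 and 184 CPM in Yes WT and 171, 165 and 168 CPM in Yes T348I. It was the one member that fell, without overlap of the groups (log2 change -0.10, SE 0.035, edgeR adjusted p = 0.0110). Its call was lost with no low-count filter (edgeR adjusted p = 0.132) and when Yes WT replicate 3 (0.0728) or Yes T348I replicate 3 (0.0545) was left out. PSMD1, another large scaffold, rose from 259.8 ± 2.88 to 304 ± 5.89 CPM (SD, n = 3 each, log2 change 0.22, edgeR adjusted p = 1.26e-07). PSMD4, the other ubiquitin receptor of the base, was at 169, 161 and 163 CPM in Yes WT and 159.9, 156 and 153 CPM in Yes T348I. Its difference of -0.07 did not pass (edgeR adjusted p = 0.0911) but passed as lower with upper quartile scaling, library size only and the GC and length offset (-0.11, -0.11 and -0.10).

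All 8 genes of the lid rose, with log2 changes between 0.14 (PSMD3) and 0.34 (PSMD11 and PSMD12) and a median of 0.24. Among all genes tested 28.0% rose, and among those of 50 CPM or more 49.4%. PSMD11, a scaffold subunit of the lid, was at 172, 181 and 189 CPM in Yes WT and 229, 225 and 231 CPM in Yes T348I. PSMD12, a neighbouring scaffold of the lid (ENSG00000197170.9, GRCh38 chromosome 17, 67337916 to 67366627), was at 209, 204 and 197 CPM in Yes WT and 243, 268 and 259.8 CPM in Yes T348I. PSMD14, the deubiquitinase that removes ubiquitin chains from substrates, was at 143, 145 and 144 CPM in Yes WT and 170.5, 175 and 176 CPM in Yes T348I. In all 8 lid genes the groups did not overlap. PSMD11 rose 1.26-fold (log2 change 0.34, SE 0.035, edgeR adjusted p = 6.67e-11), PSMD12 1.26-fold (log2 change 0.34, SE 0.036, edgeR adjusted p = 1.14e-10) and PSMD14 1.21-fold (log2 change 0.27, SE 0.035, edgeR adjusted p = 1.41e-08). PSMD11 and PSMD12 passed the minimum of 1.2-fold with edgeR adjusted p = 0.0263 and 0.0313, and lost that call when single libraries were left out. PSMD6, PSMD7, PSMD8, PSMD13 and PSMD3 rose by 0.30, 0.21, 0.19, 0.18 and 0.14. All 8 calls of a rise were kept under each of the 15 alternatives run.

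Among the alternative caps and the inhibitor, PSME3 stood apart. PSME3 encodes a nuclear cap built from copies of a single subunit, known for degrading some proteins without ubiquitin (ENSG00000131467.10, GRCh38 chromosome 17, 42824385 to 42843758). It was at 182, 187 and 175 CPM in Yes WT and 260.2, 272 and 269 CPM in Yes T348I. Its lowest Yes T348I library lay well above its highest Yes WT library, and it rose 1.47-fold (log2 change 0.55, SE 0.034, edgeR adjusted p = 1.42e-17, with the minimum of 1.2-fold adjusted p = 2.76e-10). PSME1, which forms the interferon-inducible cap together with PSME2, was at 147, 142 and 137 CPM in Yes WT and 136, 131 and 137 CPM in Yes T348I. Its groups overlapped and it did not pass (log2 change -0.074, SE 0.037, edgeR adjusted p = 0.0919), though it passed as lower with upper quartile scaling, library size only and the GC and length offset (-0.11 in each). PSMF1, an inhibitor of the core, was at 111, 118 and 109 CPM in Yes WT and 126, 120.2 and 126 CPM in Yes T348I and rose without overlap (log2 change 0.14, SE 0.04, edgeR adjusted p = 0.00255). PSME2 (log2 change -0.028) and PSME4, a large single-chain cap (-0.025), did not pass (edgeR adjusted p = 0.590 and 0.640), and the sign of PSME4 turned with no low-count filter.

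Of the 8 assembly factors 6 rose (75%) and none fell, with a median log2 change of 0.26. This share stands beside 28.0% of all genes tested and 49.4% of those of 50 CPM or more. PSMG1, which pairs with PSMG2 to assemble the alpha ring (ENSG00000183527.11, GRCh38 chromosome 21, 39174769 to 39183851), was at 40.8, 38.8 and 39.5 CPM in Yes WT and 58.8, 58.1 and 63.1 CPM in Yes T348I. This was the largest fold change of all members, 1.51-fold with no overlap (log2 change 0.59, SE 0.051, edgeR adjusted p = 2.90e-13), and stood at the 96.3 percentile of all genes tested. PSMG3, which pairs with PSMG4, was at 29.4, 26.8 and 28.8 CPM in Yes WT and 35.9, 37.0 and 38.2 CPM in Yes T348I, and rose 1.3-fold without overlap (log2 change 0.38, SE 0.059, edgeR adjusted p = 5.68e-07). PSMD5, a chaperone of the base, was at 90.0, 100.1 and 100.0 CPM in Yes WT and 115, 116 and 115 CPM in Yes T348I, with all Yes T348I libraries higher (log2 change 0.25, SE 0.041, edgeR adjusted p = 1.30e-06). PSMG1 and PSMG3 passed the minimum of 1.2-fold (edgeR adjusted p = 1.07e-07 and 0.0322). The partners PSMG2 and PSMG4 rose by 0.22 and 0.29 (edgeR adjusted p = 6.18e-04 and 4.32e-04). POMP, which completes the beta ring, rose by 0.14 (edgeR adjusted p = 0.00909), but by 0.02 after the GC and length offset (adjusted p = 0.671), and it also lost its call with upper quartile scaling, with library size only and without Yes WT replicate 2 (0.0539). The base chaperones PSMD9 (0.25, at most 4.72 CPM, with 43.8% of its main transcript shared on its strand) and PSMD10 (0.083) did not pass, though PSMD10 passed as higher without Yes T348I replicate 3 and turned in sign with the GC and length offset.

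**Figure D4:**
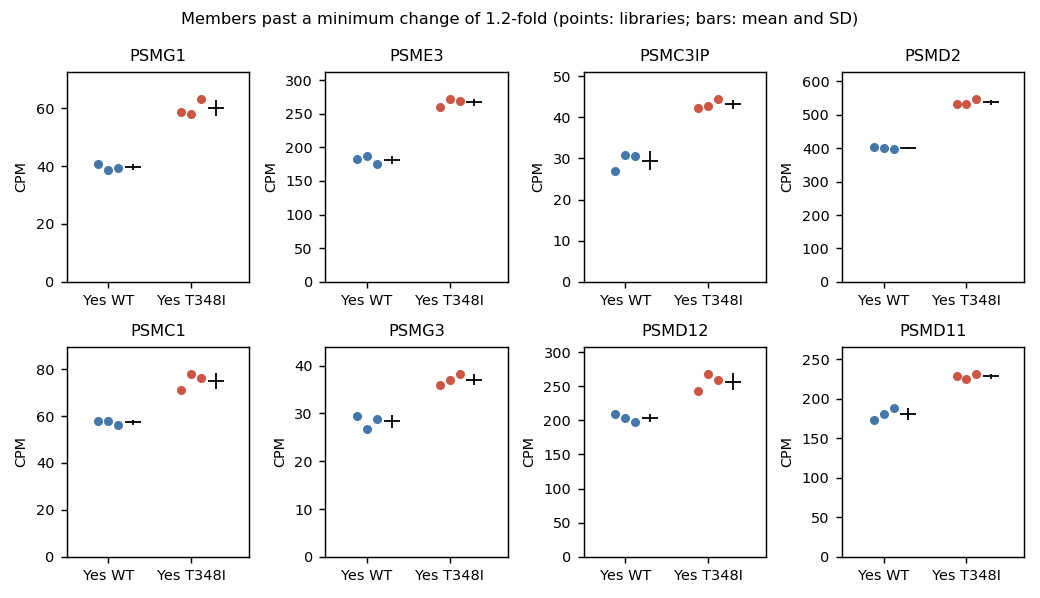
Level in each library (points, CPM, axes from 0), with mean and SD as bars, of the 8 members past a minimum change of 1.2-fold, in 3 Yes WT and 3 Yes T348I libraries. In each panel the 3 Yes T348I points lie above the 3 Yes WT points, from 58.1 to 63.1 against 38.8 to 40.8 CPM in PSMG1 and from 532 to 546 against 398 to 404 CPM in PSMD2.

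The promoters of PSMG1, PSME3, PSMC1 and PSMD12 are shown because these members rose past the minimum of 1.2-fold and come from 4 different groups of members. They were read from the RefSeq promoter table (GRCh38.p14), 5′ to 3′ on the gene's strand, with capitals for matches to 3 motifs: TGACNNNGC, part of the antioxidant response element bound by NFE2L1 and NFE2L2, CCAAT, bound by NF-Y, and CACGTG, the E-box bound by MYC and its relatives. The motifs were chosen after the values were known, and both strands were searched. For PSMC1 and PSMD12 the stretch before every exon of the gene in GENCODE release 29 is given. For PSMG1 and PSME3 the window meets an exon of the gene in that release too near its upstream end for this. For these genes 30 bases around 1 match are given.
PSMG1 site, chr21:39183615-39183644, minus strand: gcccagggcaTGACAGCGCgggcgggcggt
PSME3 site, chr17:42833343-42833372, plus strand: ggctgcgcagcgCACGTGcacagcctcgca
PSMC1 promoter, chr14:90256303-90256494, plus strand: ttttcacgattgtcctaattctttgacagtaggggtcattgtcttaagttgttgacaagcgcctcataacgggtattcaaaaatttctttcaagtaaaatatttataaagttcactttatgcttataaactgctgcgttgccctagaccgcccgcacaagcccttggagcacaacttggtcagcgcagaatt
PSMD12 promoter, chr17:67366628-67366827, minus strand: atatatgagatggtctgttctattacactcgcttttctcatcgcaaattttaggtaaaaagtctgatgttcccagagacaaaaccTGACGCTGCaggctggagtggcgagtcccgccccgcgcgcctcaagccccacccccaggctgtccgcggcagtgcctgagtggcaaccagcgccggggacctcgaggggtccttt
In PSMG1 the match to TGACNNNGC begins at base -183 from the gene start of the table, and one to CCAAT at -235. In PSMD12 a match to TGACNNNGC begins at -165. PSME3 held CACGTG at -42 and CCAAT, on the other strand, at -12. PSMC1 held none of the 3 motifs in its window. Neither did PSMD2 of the base and PSMD11 of the lid, which also passed the minimum of 1.2-fold and are not shown. Among the 7 members past that minimum with a promoter in the table, 2 held TGACNNNGC, 3 CCAAT and 1 CACGTG.

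The table held promoters for 46 of the 52 members, in 58 windows, since some genes have more than 1. Each window was read with 50 further bases after the start, 300 in all. A gene was counted for a motif if any of its windows held it. TGACNNNGC was found in 16 of the 46 (34.8%), beside 17.9% of 15843 protein-coding genes and 16.1% of all 27305 genes in the table. Of members that rose, 9 of 29 held it (31.0%), and of tested members that did not rise, 7 of 15 (46.7%). CCAAT was found in 23 of 46 members, beside 42.1% of protein-coding genes and 39.7% of all genes, in 17 of 29 that rose (58.6%) and in 5 of 15 that did not (33.3%). CACGTG was found in 4 of 46 members (8.70%), beside 10.9% of protein-coding genes and 8.77% of all genes, in 1 of 29 that rose and 3 of 15 that did not. These shares are descriptions without a test, and a match is not a bound site.

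The symbol rule also took 2 genes of other function. PSMC3IP, a cofactor of the meiotic and homologous recombination machinery, was at 26.9, 30.9 and 30.6 CPM in Yes WT and 42.3, 42.8 and 44.3 CPM in Yes T348I. It rose 1.47-fold without overlap (log2 change 0.55, SE 0.059, edgeR adjusted p = 1.17e-10), and exons of MLX lie opposite 54.4% of its main transcript. PSME3IP1, a partner of PSME3, was at 76.5, 82.0 and 75.0 CPM in Yes WT and 80.9, 83.3 and 83.2 CPM in Yes T348I, with overlap (log2 change 0.083, SE 0.043, edgeR adjusted p = 0.103), and passed as higher without Yes WT replicate 2 or Yes T348I replicate 1. Without these 2 genes, 31 of 48 tested members rose, 1 fell and 7 passed the minimum of 1.2-fold.

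Summed within each library, transcripts of every group except the inducible catalytic subunits were more abundant in Yes T348I. The 8 lid genes went from 1229.8 ± 12.5 to 1461 ± 13.8 CPM (SD, n = 3 each), a ratio of 1.19, and the 10 base genes from 1797 ± 13.7 to 2091 ± 14.7 CPM, a ratio of 1.16. The alpha ring went from 644 ± 19.7 to 733 ± 8.91 CPM (1.14) and the beta ring from 1028 ± 11.8 to 1091 ± 24.3 CPM (1.06). Assembly factors went from 362 ± 2.12 to 431 ± 1.93 CPM (1.19), and the caps with the inhibitor from 623 ± 16.9 to 709.5 ± 6.26 CPM (1.14), of which PSME3 made up most of the difference. The inducible subunits went from 29.7 ± 0.690 to 28.1 ± 1.69 CPM (0.95). No test was run on these sums. Of the 18 genes of base and lid 15 rose (83.3%) and 1 fell, with a median log2 change of 0.24. Of the 14 tested core genes 8 rose (57.1%) and none fell, with a median of 0.12. Among genes of 50 CPM or more 49.4% rose, and among all genes tested 28.0%. Whether the counts of base and lid differ from those of the core was not tested. Where none fell in a group, 0 genes fell also at an unadjusted p under 0.05 by edgeR and with DESeq2 or limma-voom.

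Genes around the proteasome were followed in 4 lists. Of 19 proteasome-associated factors 10 rose and 4 fell, with a median log2 change of 0.12, and 2 in each direction passed the minimum of 1.2-fold. The 52.6% higher and 21.1% lower stand beside 28.0% and 27.3% of all genes tested and 49.4% and 23.7% of those of 50 CPM or more, and for the minimum of 1.2-fold all genes gave 9.47% and 12.5%. UCHL5, the deubiquitinase that docks on ADRM1, was at 68.1, 72.3 and 68.5 CPM in Yes WT and 108, 113 and 110.1 CPM in Yes T348I. It rose 1.58-fold without overlap (log2 change 0.66, SE 0.042, edgeR adjusted p = 2.56e-17), more than any proteasome gene. RAD23B, which shuttles ubiquitinated proteins to the particle, rose from 321 ± 5.35 to 413 ± 8.06 CPM (SD, n = 3 each, log2 change 0.36, SE 0.032, edgeR adjusted p = 5.99e-13). ZFAND5, which activates the particle, fell from 310.3 ± 9.71 to 242 ± 9.999 CPM (log2 change -0.36, SE 0.035, edgeR adjusted p = 9.63e-12), and MIDN, which brings nuclear proteins to it without ubiquitin, from 76.3 ± 1.04 to 56.5 ± 2.45 CPM (log2 change -0.43, SE 0.046, edgeR adjusted p = 1.07e-10). SEM1, a small lid subunit that the symbol rule does not take and that is named here after its values were seen, rose by 0.15 (edgeR adjusted p = 0.00236).

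NFE2L1 is the transcription factor known to raise proteasome genes when the particle is inhibited, after release from the endoplasmic reticulum by SYVN1, VCP and its cofactors and cleavage by DDI2. NFE2L1 itself was at 463, 453 and 469 CPM in Yes WT and 476, 463 and 466 CPM in Yes T348I, with overlap (log2 change 0.02, SE 0.031, edgeR adjusted p = 0.621), and its sign turned with upper quartile scaling and library size only. Its relative NFE2L3 was at 48.2, 49.8 and 51.8 CPM in Yes WT and 96.9, 100.1 and 99.5 CPM in Yes T348I. NFE2L3 rose 1.98-fold without overlap (log2 change 0.98, SE 0.044, edgeR adjusted p = 4.27e-22), the largest change of all genes in the 4 lists. NFE2L2, which encodes the antioxidant factor NRF2, was at 229, 241 and 238 CPM in Yes WT and 191, 191 and 183 CPM in Yes T348I and fell without overlap (log2 change -0.33, SE 0.034, edgeR adjusted p = 7.10e-11). The ubiquitin ligase gene SYVN1 fell (log2 change -0.40, SE 0.053, edgeR adjusted p = 2.25e-08), and NPLOC4, a cofactor of VCP, rose (log2 change 0.23, SE 0.034, edgeR adjusted p = 2.67e-07). Of the 9 genes of this list 3 rose, 3 fell and 3 did not pass, with a median log2 change of 0.02. The shares of 33.3% each way stand beside 28.0% of all genes tested higher and 27.3% lower.

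Of 6 genes for ubiquitin and its E1 enzymes, 2 rose (33.3%, beside 28.0% of all genes tested and 49.4% of those of 50 CPM or more) and none fell, with a median log2 change of 0.01. UBA6, an E1 enzyme, rose by 0.16 (SE 0.04, edgeR adjusted p = 9.00e-04), and RPS27A, which encodes ubiquitin fused to a ribosomal protein, by 0.11 (SE 0.031, edgeR adjusted p = 0.00289). The call of RPS27A was lost with upper quartile scaling, library size only and the GC and length offset. The polyubiquitin gene UBB (-0.085, edgeR adjusted p = 0.105) and the main E1 gene UBA1 (-0.047, 0.226) did not pass, but both passed as lower with upper quartile scaling and library size only. UBB passed as lower also with the GC and length offset and without replicate 1 of either group, and the sign of UBA1 turned with the GC and length offset.

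Genes of MHC class I antigen presentation, which uses peptides made by the proteasome, were mostly lower: 8 of the 13 reported fell (61.5%, beside 27.3% of all genes tested), 2 rose and 3 did not pass, with a median log2 change of -0.10. TAPBP, which loads peptides onto class I molecules, fell from 332 ± 10.2 to 268 ± 4.31 CPM (SD, n = 3 each, log2 change -0.31, SE 0.033, edgeR adjusted p = 1.29e-10). NLRC5, the transactivator of class I genes, was at 6.60, 8.79 and 8.83 CPM in Yes WT and 4.56, 4.66 and 4.51 CPM in Yes T348I. All its Yes T348I libraries were lower (log2 change -0.81, SE 0.13, edgeR adjusted p = 1.33e-06), and it was the one gene of the 13 past the minimum of 1.2-fold, which 12.5% of all genes passed as lower. IRF1, a transcription factor induced by interferon, fell from 36.5 ± 0.488 to 28.2 ± 3.14 CPM (log2 change -0.36, SE 0.064, edgeR adjusted p = 6.32e-06). TAP1, a subunit of the peptide transporter encoded beside PSMB9, went the other way, from 51.7 ± 2.77 to 64.4 ± 0.396 CPM (log2 change 0.32, SE 0.048, edgeR adjusted p = 3.15e-07). The leukocyte, endothelial and fibroblast and stellate markers summed to at most 2.94, 1.47 and 8.03 CPM. These sums were lower in Yes T348I as well, and CD14, PECAM1 and ACTA2 were the only genes of these lists tested. The part of these markers in the differences of the class I genes was not tested.

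**Figure D5:**
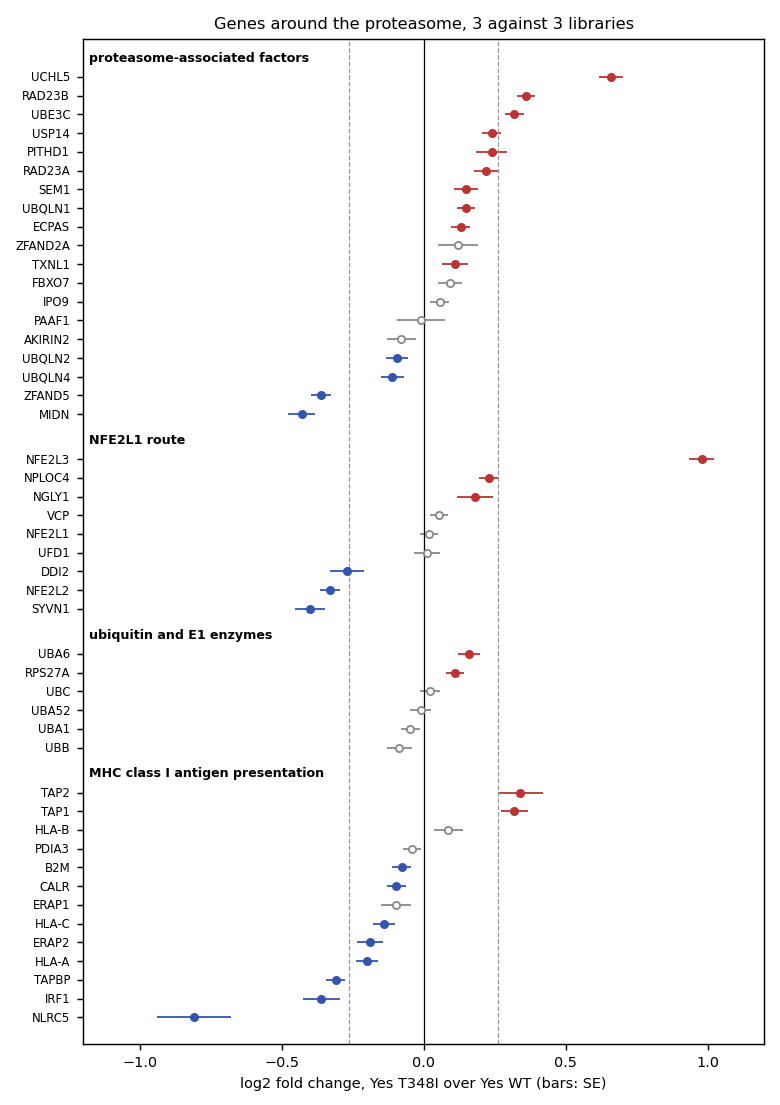
Log2 change of Yes T348I over Yes WT (horizontal axis) for the genes of the 4 lists around the proteasome, with the standard error as a bar, 3 libraries a group. Filled red points passed the edgeR test as higher, filled blue as lower, open grey points did not pass, and dashed lines mark 1.2-fold. NFE2L3 (0.98) and UCHL5 (0.66) lie farthest to the right and NLRC5 (-0.81) farthest to the left.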

How the data were processed

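The authors deposited, for each library, raw read counts per gene. STAR 2.5.1b, Trimmomatic 0.35, CASAVA 1.8.2 and the GRCh38 build appear in the submitters' processing notes, in no stated role. Which annotation release was counted is not given. Counts of the reverse strand were taken, since the library kit is stranded and the forward counts came to 6.13% to 6.59% of them. Reads on no feature, 6.37% to 7.87% of unique reads, and ambiguous reads, 3.11% to 3.15%, stayed out of library sizes and tests. Multi-mapped reads were left out as well.

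Symbols and positions came from the given name table and GENCODE 29. Genes were kept by filterByExpr (minimum count 10), scaled by TMM and tested in R 4.3.3 with edgeR 4.0.16 (quasi-likelihood F-test, no covariate, all 6 libraries), with Benjamini-Hochberg adjustment over 14723 genes and a threshold of 0.05. A minimum change of 1.2-fold was tested with glmTreat. Ratios of catalytic subunits were taken from the counts with nothing added, and 0.5 was added to each count only in an alternative run. The fit was also run on simulated counts in which few genes changed. Far more genes passed in these data, so that run cannot show how accurate the calls here are. The coefficient of variation that edgeR names biological was 2.83%, and part or all of it can be technical here. The variance between Yes T348I replicates 1 and 2 was 5.27 times that of counting noise. In the other pairs of a group it was 1.48 to 2.32 times. The counts give the depth of each library, and genes of few counts are the least precise.

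Alternatives were DESeq2 1.42.0, limma-voom (limma 3.58.1), other scalings, no low-count filter, an offset for GC content and length, unstranded counts, the replicate number as a block, other minimum changes and each library left out. Deviations of same-numbered libraries from their group means were barely correlated (-0.028, 0.001 and -0.019). A small shared effect could go unseen in these correlations, so whether the numbers pair libraries is not settled. Genes named with values in every library are the catalytic subunits, up to 3 further members per group with the lowest adjusted p, and, added after the values were seen, PSMC4, PSMD4 and the low-count alpha gene PSMA2. Of each surrounding list up to 4 genes with the lowest adjusted p are named, and NFE2L1. A gene of the MHC class I list is not reported here, and the list's counts leave it out. The members and lists were chosen with earlier results of these data known.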

Additional observations from a re-analysis of the deposited data

How the results depend on the processing

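The number of members that rose was 30 to 34 under the 15 alternatives run, and 29 of the 32 kept their call under all of them. The exceptions were PSMA2, PSMB5 and POMP. The number that fell went from 1 to 3 with upper quartile scaling, 3 with library size only, 5 after the GC and length offset and 0 with no low-count filter, and to between 0 and 1 with each library left out (0 without Yes WT replicate 3 or Yes T348I replicate 3). Members past the minimum of 1.2-fold numbered 23 at 1.1-fold, 0 at 1.5-fold and 5 to 9 with each library left out (5 without Yes T348I replicate 3). Associated factors that fell numbered 2 with no low-count filter, 2 with DESeq2 and 2 to 4 with each library left out (2 when replicate 3 of either group was missing). For ubiquitin and its E1 enzymes, 1 rose with upper quartile scaling, library size only and the GC and length offset, while 2, 2 and 1 fell, and 0 to 1 fell with each library left out (1 when replicate 1 of either group was missing).

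Signs turned only in genes that had not passed. Log2 changes became 0.014 (PSMB1) and 5.70e-04 (PSME4) with no low-count filter, -0.013 (PSMB6), -0.0078 (PSMB9) and -0.021 (NFE2L1) with upper quartile scaling, and -0.010 (PSMB6), -0.0041 (PSMB9) and -0.018 (NFE2L1) with library size only. After the GC and length offset they were -0.0029 (PSMB6), -0.032 (PSMB9), -0.012 (PSMC2), -0.0086 (PSMD10) and 0.013 (UBA1). With each library left out PSMB1 ranged from -0.035 to 0.015, PSMB6 from -0.0016 to 0.062, PSMB9 from -0.062 to 0.087 and PSME4 from -0.051 to 0.017. The median of all genes was -0.053 with upper quartile scaling and -0.05 with library size only. That of the members was 0.158 and 0.161. The GC and length offset lowered the median of the members most, from 0.199 in the main fit to 0.144. That of all genes was -0.013 in the main fit and -0.015 with this offset. 

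In the fit with a replicate block 32 members rose, and of 67 calls of named and member genes 67 were the same. The cause of these changes was not tested. Depth limits PSMA2, PSMB10 and PSMD9 most, at 32 to 110 counts per library.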
